A study of Rattus norvegicus with 4 samples.

Results

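Peaks of trimethylated histone H3 lysine 27 (H3K27me3) whose nearest annotated gene is a chemosensory receptor were examined in the sciatic nerve of the rat. They were chosen by gene symbol alone, as olfactory receptor (Olr followed by a digit), vomeronasal receptor (Vom1r, Vom2r) or taste receptor (Tas1r, Tas2r), without use of any peak value. The rule took 1502 of the 129550 peaks of the list (1.16%), nearest to 251 of its 10647 named genes (2.36%). They made up 0.954% of the length that the peaks covered and 0.807% of the summed peak score. The symbol rule also took 3 peaks within introns of Olr1, which in rat is the receptor for oxidised low density lipoprotein and not an odorant receptor, with scores of 3.51, 13.4 and 3.09.

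The tissue was whole sciatic nerve of male Sprague Dawley rats of postnatal day 42, taken 1 day after surgery from the limb opposite to a nerve cut, where the operation was limited to the skin. From it came 2 H3K27me3 libraries, made by immunoprecipitation of chromatin cut with micrococcal nuclease, and 2 libraries of the input chromatin. The deposited peak list pools the H3K27me3 libraries and gives a single value for each peak, so no value below has a replicate error and no test was made. Nerve holds many cell types, and a mark present on few cells cannot be told apart from a weak mark on many.

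H3K27me3 is laid down by Polycomb repressive complex 2 and lies on genes that a cell keeps silent. In mammals it is best known from CpG-rich promoters of developmental regulators. Chemosensory receptors are membrane proteins of sensory cells in the nose, the vomeronasal organ and the taste buds. Their genes are mostly short, with the coding region of olfactory, Vom1r and Tas2r receptors in a single exon, poor in CpG, and gathered in tandem arrays. In olfactory neurons of the mouse, the silent receptor arrays are packed in heterochromatin marked at other residues of histone H3 and H4, and each neuron opens a single allele.

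The start regions of the 4 receptor genes with the highest-scoring peaks near their start are shown first, because their CpG content and their start codon bear on how the distances below are read. They are RefSeq sequences of GRCr8, the newer rat assembly, written 5′ to 3′ on the strand of the gene, with 250 bases before the annotated start and the first 3 bases after it. Every CG dinucleotide is in capitals. Olr1744 (Or10c1 in GRCr8) is at chr20:1375597-1375849 on the plus strand, Olr1462 (Or2b11) at chr10:44858906-44859158, Olr1654 (Or2b2) at chr17:47508131-47508383 and Olr1522 (Or4d2) at chr10:73195276-73195528, the last 3 on the minus strand. The fifth is the start of Lhx2, a LIM-homeodomain factor that olfactory neurons need to express receptors, at chr3:42535494-42535746 on the plus strand.
Olr1744: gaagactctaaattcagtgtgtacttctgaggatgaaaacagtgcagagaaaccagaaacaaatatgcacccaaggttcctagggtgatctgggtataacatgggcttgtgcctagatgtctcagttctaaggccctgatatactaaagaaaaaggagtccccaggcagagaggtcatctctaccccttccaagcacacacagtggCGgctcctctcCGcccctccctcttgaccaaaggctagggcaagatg
Olr1462: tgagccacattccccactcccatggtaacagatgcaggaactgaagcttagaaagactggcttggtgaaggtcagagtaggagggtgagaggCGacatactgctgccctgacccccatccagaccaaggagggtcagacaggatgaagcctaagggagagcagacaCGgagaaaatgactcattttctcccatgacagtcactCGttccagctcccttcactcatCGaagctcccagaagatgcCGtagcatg
Olr1654: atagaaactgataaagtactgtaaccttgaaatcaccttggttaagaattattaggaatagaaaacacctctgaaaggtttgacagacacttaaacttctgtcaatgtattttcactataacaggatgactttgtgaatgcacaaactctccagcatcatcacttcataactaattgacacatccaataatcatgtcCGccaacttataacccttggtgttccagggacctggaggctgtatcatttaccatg
Olr1522: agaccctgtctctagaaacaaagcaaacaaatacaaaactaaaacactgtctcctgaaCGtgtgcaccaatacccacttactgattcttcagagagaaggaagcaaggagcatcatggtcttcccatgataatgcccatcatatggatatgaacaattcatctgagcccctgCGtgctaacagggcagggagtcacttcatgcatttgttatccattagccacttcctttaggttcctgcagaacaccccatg
Lhx2: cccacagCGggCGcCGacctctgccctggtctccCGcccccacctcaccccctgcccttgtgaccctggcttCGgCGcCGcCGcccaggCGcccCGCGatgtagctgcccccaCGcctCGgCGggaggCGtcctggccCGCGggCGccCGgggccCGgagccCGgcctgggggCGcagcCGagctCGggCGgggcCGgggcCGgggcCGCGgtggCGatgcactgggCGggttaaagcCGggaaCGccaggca

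The 4 receptor windows hold 2, 5, 1 and 2 CG dinucleotides, and the Lhx2 window holds 33. GC content is 49.4% for Olr1744, 53.4% for Olr1462, 37.2% for Olr1654 and 44.7% for Olr1522, against 80.6% for Lhx2. Each receptor window ends in atg, the start codon. This was the rule among receptors: in the full windows of 300 bases, the annotated start was an ATG in 204 of the 217 promoter entries of receptor genes with a peak (94.0%, 95% Wilson interval 90.0 to 96.5%), against 9.0% of all 33469 entries of the table. In RefSeq of GRCr8, the annotated start of a receptor gene is therefore in most cases its start codon. The true transcription start, which can lie some distance upstream, is not marked there. Distances below are the authors' own, to the annotated start in rn5. Whether the starts in rn5 are start codons too was not tested.

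CpG content was low throughout the family. The 48 entries of receptor genes with a peak near the start had a median of 3 CG dinucleotides (quartiles 1 and 5) in the 300 bases, and all 1293 receptor entries had a median of 1 (quartiles 0 and 2). All promoters of the table had a median of 7 (quartiles 3 and 19). At least 10 CG dinucleotides were present in 12.5% of the entries with a nearby peak, 0.696% of all receptor entries and 41.5% of all promoters. The letters CCCNNGGG, the core of the Ebf (Olf) factor site, searched on both strands, were in 0 of the 48 windows with a nearby peak, with a 95% Wilson upper bound of 7.41%. They were in 1.78% of all receptor windows and 12.4% of all promoters. The homeodomain core TAATTA, a palindrome, was in 6.25% of the windows with a nearby peak, 19.1% of all receptor windows and 5.36% of all promoters. The receptor windows end shortly after the start codon, so these shares describe that stretch alone.

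Receptor peaks were ordinary in size for the list, with a small number of high ones. Their median score was 4.33, against 4.54 for the whole list, and their median width was 189 bp, against 191 bp. The quartiles of the score were 3.30 and 9.08 for receptor peaks, against 3.30 and 9.90 for the whole list. The score is the authors' own value for each peak. In the top 25% of scores of the list, at 9.9 or above, lay 353 receptor peaks (23.5%, interval 21.4 to 25.7%), against 25.1% of all peaks. Peaks of at least 1000 bp numbered 127 among receptor peaks (8.46%, 7.15 to 9.97%), against 10.9% of all peaks. The smallest width, 150 bp, was that of 46.6% of receptor peaks, against 45.2% of all peaks. The 15 highest receptor peaks, 1.00% of them, held 19.4% of their summed score. Across receptor peaks, width and score went together (Spearman rho 0.905), while distance and score did not (rho -0.04). If the score counts tags, as the counting intervals below assume, a wider peak has room for more of them. The same correlations over the whole list were not computed, so neither can be read as a trait of receptor peaks. All these values are descriptions across peaks of a pooled list, and the Wilson intervals treat neighbouring peaks as independent.

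Among the families, the 1184 olfactory receptor peaks (205 genes) had a median score of 4.33 and reached 982.1. The 93 Vom1r peaks (16 genes) had the lowest medians, 150 bp and a score of 4.13, and reached 76.3. Vom1r genes encode the vomeronasal receptors for small volatile molecules. The 139 Vom2r peaks (20 genes) had a median score of 4.54 and reached 134.3. Vom2r genes encode vomeronasal receptors with a large extracellular domain that bind peptides and proteins. The 66 Tas2r peaks (9 genes), nearest to bitter receptors, had the highest medians, 217 bp and 4.85, and reached 142.7. All 20 Tas1r peaks were nearest to Tas1r2, a subunit of the sweet receptor, with a median of 4.23 and a maximum of 63.7. The other members of that family, Tas1r1 and Tas1r3, were the nearest gene of no peak. The share in the top 25% of scores was 23.8% of olfactory, 16.1% of Vom1r (10.0 to 24.9%), 28.1% of Vom2r (21.3 to 36.0%), 10.0% of Tas1r and 22.7% of Tas2r peaks (14.3 to 34.2%), and these intervals overlap.

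**Figure D1:**
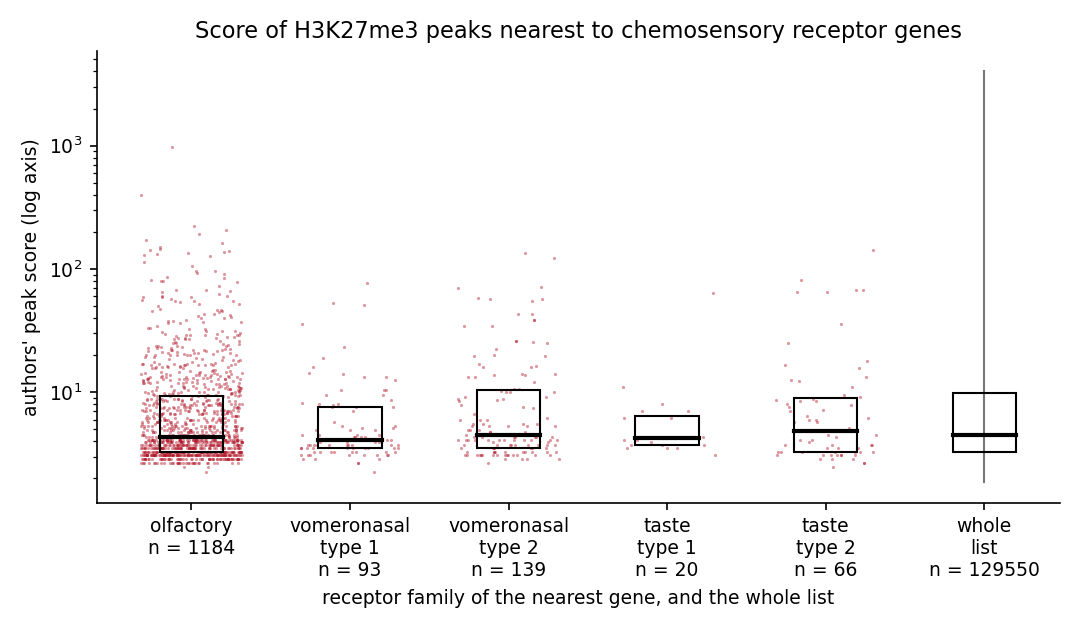
Authors' score of each receptor peak (points, log axis) by the receptor family of the nearest gene, beside the whole list. Boxes give the quartiles and thick lines the medians, which lie between 4.13 (Vom1r) and 4.85 (Tas2r) and at 4.54 for the whole list, whose vertical line spans its full range of 1.86 to 4010.3.

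Single receptor genes differed widely in the number of peaks they had drawn. The median was 3 peaks per gene, 64 genes had a single peak, and 42 had 10 or more. Olr1768 had 101, followed by Vom2r2 with 49, Olr1645 with 42, Olr390 with 34 and Olr285 with 31. Some of these peaks lay far off: the 49 of Vom2r2 came no closer than 79414 bp and the 42 of Olr1645 no closer than 63502 bp. In 115 genes (45.8%) the highest peak was in the top 25% of scores, and in 84 it was below the list median. The same share over all genes of the list was not computed, so 45.8% cannot be read as high or low. Genes of the list had a median of 7 peaks, against 3 for receptor genes, and the share of 25% refers to single peaks.

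The highest receptor peak lay nearest to Olr1768 (Or7r1 in GRCr8). It spanned 16501 bp at chr1:151956798-151973299 of rn5, centred 14908 bp downstream of the annotated start, with a score of 982.1 (95% counting interval 954 to 1010), and ranked 133 in the whole list. The interval treats each step of the score as 1 sequenced tag and covers counting error alone. It stood among the 101 peaks nearest to that gene, which lay from 183212 bp upstream to 29997 bp downstream and covered 30.6% of these 213 kb. Each peak is named by its nearest start, so no peak of another gene could lie between them. Of the 101 peaks, 87 lay upstream, 16 were at least 1000 bp wide and 37 were in the top 25% of scores, and the next highest scored 91.8. The receptor is placed on chromosome X in GRCr8, between Ikbkg and Ctag2l2, and on chromosome 1 in the authors' annotation of rn5.

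The second highest peak lay over the start of Olr1744, within the olfactory receptor array beside the major histocompatibility complex. It spanned 10134 bp at chr20:3896076-3906210 with a score of 397.5 (380 to 416), and its centre was 1747 bp upstream of the annotated start. A further peak of 4019 bp and 131.6 followed 7233 bp downstream. Olr1743 next to it had a peak of 2661 bp and 80.9, and Olr1750 at the other end of the array had 2750 bp and 83.7. The array held 56 receptor peaks of 9 genes over 186 kb, of which 19 were in the top 25% of scores. In the same span 11 peaks were nearest to other genes, and the nearest such peak to the highest one belonged to Ubd, 13292 bp away.

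The array Olr1343 to Olr1353 on chromosome 9 was densely covered. It had 84 receptor peaks of 10 genes within 149 kb, which is 564.9 peaks per Mb, against 49.3 for the chromosome, and peaks covered 45.5% of the span. Here 62 of the 84 peaks were at or above the list median, 39 were in the top 25%, 19 were at least 1000 bp wide, and the median score was 8.87. The highest peaks belonged to Olr1343 (Or6b2), with 4777 bp at chr9:99318713-99323490 and a score of 192.9, and to Olr1345 (Or6b3), with 5353 bp at chr9:99362585-99367938 and 149.5. Others were 86.2 at Olr1350, 73.4 at Olr1353, 53.8 at Olr1346, 46.2 at Olr1347, 41.9 at Olr1352, 40.2 at Olr1344, 38.8 at Olr1349 and 23.7 at Olr1351. Every gene of the array that had a peak had its highest above the list median of 4.54. Of the 10 genes, 9 had a peak near the start, which Olr1351 did not. The authors' annotation assigns most of the span to intron 5 of 9 of Ppp1r7, while the GRCr8 listing puts Ndufa10 and Cops9 on either side of the array.

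**Figure D2:**
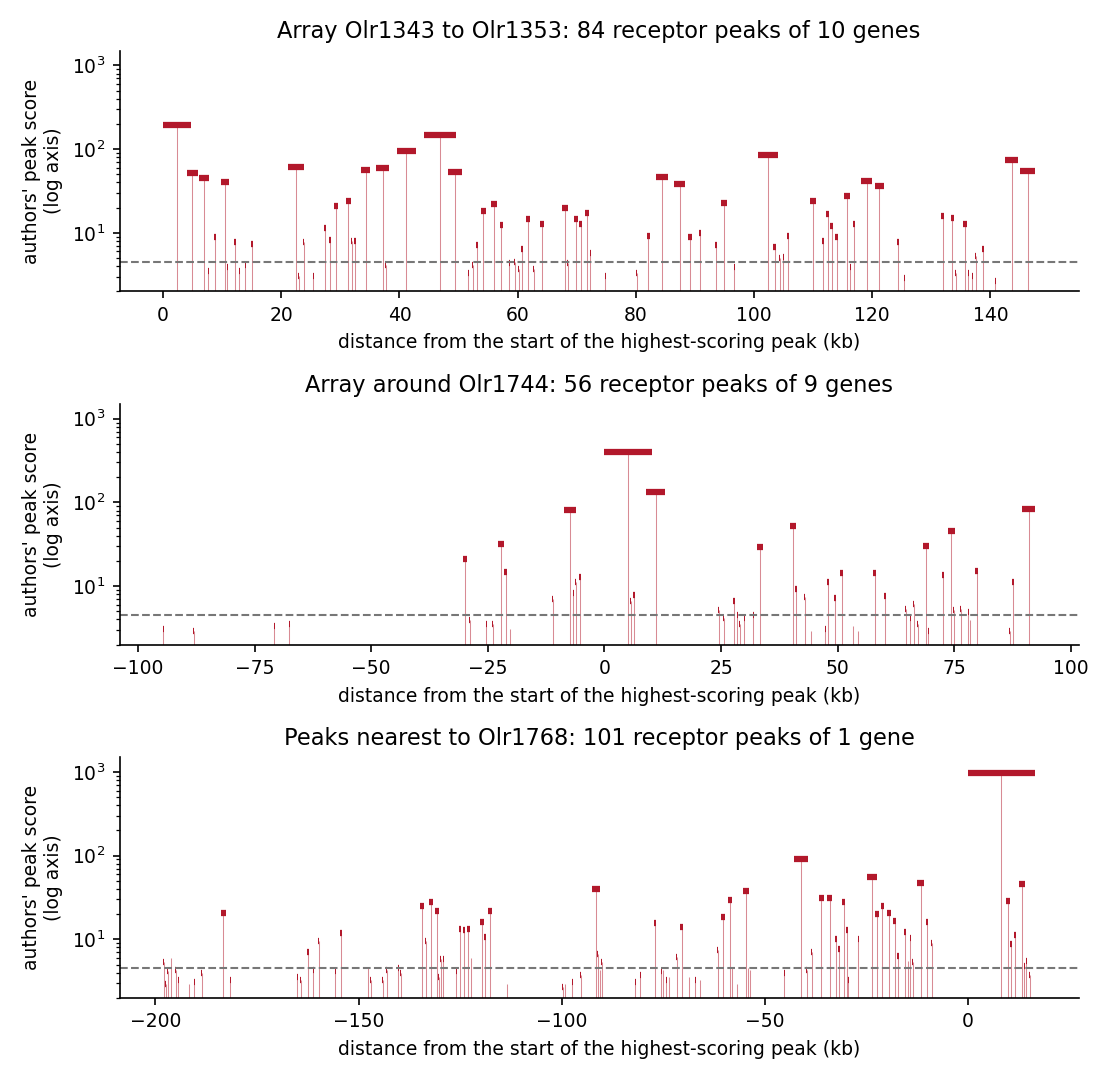
Receptor peaks of the array Olr1343 to Olr1353, of the array around Olr1744 and of Olr1768, drawn to scale by distance from the start of the highest peak (kb) and by authors' score (log axis). Horizontal bars span each peak, thin vertical lines mark its centre and the dashed line is the whole-list median of 4.54. Peaks of other genes are not drawn. The array Olr1343 to Olr1353 has high peaks along its whole length, while the highest peak of Olr1768 (982.1) stands beside peaks of 91.8 or less.

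Further high olfactory peaks lay on chromosome 10. Olr1462 (Or2b11), next to the inflammasome gene Nlrp3, had 5346 bp at chr10:45680440-45685786 with a score of 222.8 (210 to 237), centred 2337 bp upstream of its start, and a further peak of 1540 bp and 59.0. Its neighbour Olr1463 (Or2aa1) had 23 peaks, the highest of 4897 bp and 114.5, and a peak of 2013 bp and 49.7 centred 820 bp upstream of its start. Olr1382 reached 141.3. On chromosome 17, Olr1654 (Or2b2), beside the histone genes, lay under a peak of 5593 bp and 140.3 (130 to 151) centred 932 bp downstream of the start.

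Some high peaks were receptor peaks by distance alone. Both high peaks of Olr234 (205.2 and 170.6) were centred 146911 and 142180 bp downstream of its start. GRCr8 lists Nlrp14 as the next gene, and a peak of Syt9 stood 9533 bp from the higher. The peak of 162.5 near Olr1602 was 65026 bp away and that of 146.2 near Olr1111 was 40981 bp away. For these the receptor is the nearest start in the annotation, and nothing in the list ties them to it.

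Vomeronasal and taste families differed in distance. The median distance was 166137 bp for Vom2r, 26359 bp for Vom1r, 47083 bp for Tas1r2, 19346.5 bp for Tas2r and 11052 bp for olfactory receptors, against 35622 bp for the whole list. Vom2r and Tas1r2 peaks were thus farther than the list's median, and Vom1r and Tas2r peaks closer. The Vom2r median leans on few genes. Of the 139 Vom2r peaks, 49 were nearest to Vom2r2, none closer than 79414 bp, and 15 to Vom2r7, none closer than 146772 bp. Vom2r2 is on chromosome 2 in rn5 and chromosome 1 in GRCr8, and the part of this placement in its distances was not tested. The highest Vom2r peaks lay 14789 bp upstream of Vom2r27 (4217 bp at chr1:63704665-63708882, score 134.3) and 15035 bp upstream of Vom2r12 (3427 bp at chr1:64456557-64459984, 123.8). No Vom2r peak came closer than 3859 bp. The highest Vom1r peak (1977 bp, 76.3) was 35413 bp from Vom1r70, and Vom1r90 had 993 bp and 53.2 at 6580 bp. Among bitter receptors, Tas2r143 had 3680 bp and 142.7 at 51885 bp upstream, Tas2r140 had 2931 bp and 81.5 at 15237 bp upstream, and Tas2r118 had 1830 bp and 67.9 at 143068 bp. The highest of the 20 Tas1r2 peaks (2157 bp, 63.7) lay 44808 bp downstream of its start and 60505 bp from the nearest peak of Pax7, the next gene. The other 19 scored between 3.09 and 11.1.

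Receptor peaks were closer to an annotated start than peaks of the list, and those near a start were lower than the list's. The median distance was 16207.5 bp for receptor peaks, against 35622 bp for the whole list. It was 8152 bp for peaks nearest to keratin genes and 47626 bp for peaks nearest to zinc finger protein genes. Short distances were thus not particular to receptor peaks. Within 1 kb of the start were 64 receptor peaks (4.26%), against 3.03% of the list, and between 1 and 5 kb were 349 (23.2%), against 11.04%. The spacing of starts in receptor arrays was not measured, and its part in these shares was not tested. The median score within 1 kb was 5.26 for receptor peaks, against 10.3 for the list. Of receptor peaks within 1 kb, 29.7% were in the top 25% of scores, against 51.0% of all peaks within 1 kb, and between 1 and 5 kb the shares were 21.5% for receptor peaks and 37.1% for the list. Between 50 and 200 kb they were 25.4% for receptor peaks and 20.8% for the list. Beyond 200 kb they were 14.1% for receptor peaks and 16.8% for the list. In the whole list the share was lower in each band farther from the start, and in receptor peaks the bands up to 200 kb lay between 21.5% and 29.7%.

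**Figure D3:**
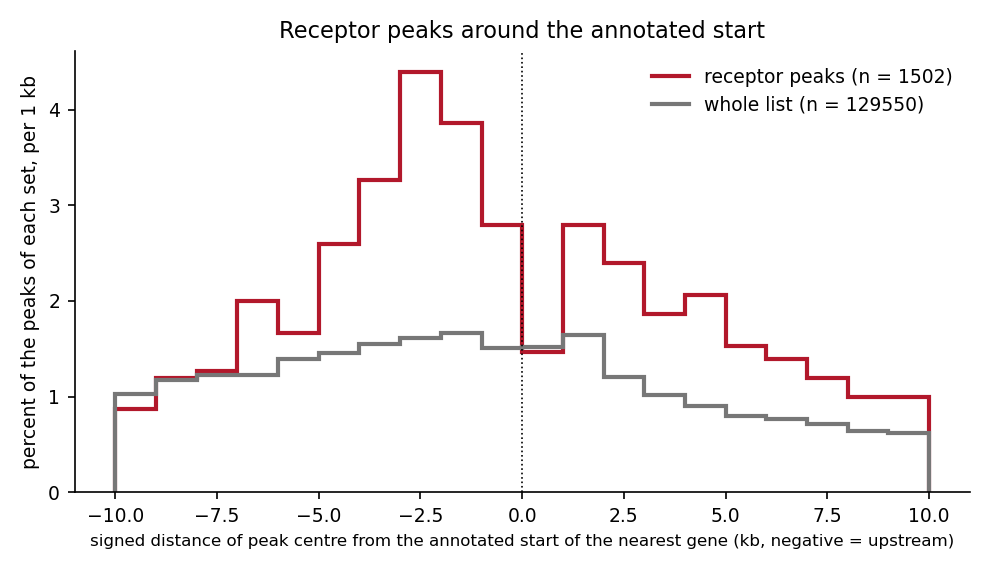
Percent of receptor peaks and of all peaks per 1 kb of signed distance between peak centre and the annotated start of the nearest gene (negative is upstream). The receptor line is highest between 3 and 2 kb upstream, at 4.39% (66 peaks), against 1.61% of the list, and dips to 1.46% (22 peaks) in the kilobase just downstream of the start, against 1.51% of the list.

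The profile around the start had a dip at the gene body. Receptor peaks numbered 66 between 3 and 2 kb upstream, 58 between 2 and 1 kb upstream, 42 in the last kilobase before the start, 22 in the first kilobase after it and 42 in the next. Where the annotated start is the start codon, the first kilobase after it is where the coding exon of an olfactory, Vom1r or Tas2r receptor lies. The whole list ran evenly there, with 1.66% between 2 and 1 kb upstream, 1.51% in the last kilobase before the start and 1.51% in the first after it. By the authors' classes, 3.06% of receptor peaks (46) were centred in a promoter-TSS window and 3.0% (45) at a transcript end, against 1.63% and 0.783% of the list. Of peaks nearest to keratin genes, 5.62% were in a promoter-TSS window and 4.49% at a transcript end. For zinc finger protein genes these shares were 0.843% and 0.662%. Intergenic were 85.5% of receptor peaks (83.6 to 87.2%), against 74.7% of the list, and intronic 7.59%, against 21.8%. Zinc finger gene peaks were alike in this, with 90.8% intergenic and 7.10% intronic, and keratin gene peaks were not, with 62.2% and 26.2%. How well short reads can be placed within near-identical receptor exons was not tested.

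A peak was counted as a promoter peak where it reached within 1000 bp of the annotated start. This held for 80 receptor peaks (5.33%, 4.30 to 6.58%), against 4.81% of all peaks. They belonged to 58 of the 251 receptor genes with a peak (23.1%, 18.3 to 28.7%), against 38.4% of all genes named in the list. Counted over the RefSeq genes of GRCr8, the share was 4.15% of 1277 olfactory receptor genes (53), 1.90% of 105 Vom1r genes (2), 0 of 78 Vom2r genes (upper bound 4.69%), 0 of 3 Tas1r genes (upper bound 56.1%) and 5.71% of 35 Tas2r genes (2), against 17.2% of all protein-coding genes. A receptor gene missing from the annotation of rn5 counts here as without a peak.

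Of all peaks of the list centred within 1 kb of a start, 51.0% were in the top 25% of scores. The share over all promoter peaks of the list was not computed. Of the 80 promoter peaks of receptor genes, 28 at 25 genes were in the top 25% of scores. Olr1744 (397.5), Olr1462 (222.8), Olr1654 (140.3) and Olr1522 (67.7) led them, and Olr386 (67.5), Olr1343 (52.2), Olr1463 (49.7), Olr1l (43.1), Olr1352 (36.3) and Olr1742 (31.6) followed. The authors' annotation gives Olr386 and Olr1l the same transcript, placed at 2 sites, so their peaks may share reads. Lower members were Olr834 (27.2), Olr833 (22.5), Olr1653 (17.7), Olr1521 and Tas2r140 (15.7 each), and 24 of the 25 genes were olfactory receptors. The 6 peaks centred closest to a start were small. They scored 3.30 at Vom1r62 (27 bp upstream), 5.57 at Olr1768 (39 bp downstream), 4.13 at Olr834, 2.89 at Olr838, 8.87 at Olr1341 and 7.63 at Olr152, with widths of 150 to 273 bp.

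In the GRCr8 nomenclature, olfactory receptors with an Or family symbol fall into class I (families Or51 to Or56, the fish-like receptors) and class II (the other families). Genes without such a symbol, such as Olr1520, are in neither class, so the classes do not add up to all 1277 olfactory receptor genes. A peak named 15.0% of the 140 class I genes (10.0 to 21.8%) and 16.1% of the 1068 class II genes (14.0 to 18.4%), and 10.7% of each class had a peak centred within 5 kb. The 76 class I peaks had a median score of 4.13 and reached 79.8 at Olr152, and the 1026 class II peaks had 4.54 and reached 982.1. In the top 25% of scores were 17.1% of class I and 24.9% of class II peaks, and a promoter peak was present at 2 class I and 50 class II genes. Within class II the families were far apart. Genes named by a peak were 41.3% of Or13 (19 of 46), 33.3% of Or9 (11 of 33), 29.7% of Or6 (27 of 91) and 28.0% of Or2 (35 of 125). They were 5.75% of Or5 (10 of 174), 6.37% of Or4 (10 of 157) and 3.13% of Or7 (2 of 64). Or9 peaks had the highest median score, 7.01 over 91 peaks, and Or13 had a median of 3.92 over 109. Family and array are not separate here. Many Or9 peaks lie in the chromosome 9 array described above, such as the 19 of Olr1346 (Or9s23b) and the 7 of Olr1352 (Or9s14). The run of 230 genes on chromosome 3 from Or5ak4 to Or4x13 had 2 named genes, which bears on the Or4 and Or5 shares.

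Peaks gathered in clusters along 18 chromosomes. Chromosome 1 had 399 receptor peaks, chromosome 10 had 235, chromosome 4 had 152, chromosome 2 had 119 and chromosome 9 had 101. Chained with gaps of up to 1 Mb, they formed 93 clusters, of which 64 had at least 5 receptor peaks and held 95.1% of all of them. In 27 of these 64 all receptor peaks were nearest to the same gene, and 37 held several genes. The 64 spans had 71.2 peaks of any gene per Mb, against 44.8 for the list, and 48 of them were denser than their chromosome. The ends of a span are receptor peaks by construction, which raises the density of short spans: of the 15 spans over 500 kb, 7 were denser than their chromosome. With gaps of up to 2 Mb, the density was 46.2 per Mb, close to that of the list. The long olfactory cluster of chromosome 1 (63 receptor peaks of 19 genes over 1944 kb) had 39.6 peaks per Mb, against 53.9 for the chromosome, with a median score of 3.92. The long one of chromosome 15 (67 receptor peaks of 7 genes over 3969 kb) had 35.8, against 34.4.

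The clusters differed in their highest peak. The cluster of 50 receptor peaks around Vom2r27 on chromosome 1, which holds Vom2r, Vom1r and olfactory receptor genes, reached 134.3, with 40.0% of its receptor peaks in the top 25%. It was long (2670 kb) and had 48.3 peaks per Mb, against 53.9 for the chromosome, and 79 of its 129 peaks were nearest to other genes. The 20 peaks around Olr1520 on chromosome 10 reached 130.2 and had 305.6 peaks per Mb. The 34 peaks around Olr1522 reached 67.7 and had 586.4 peaks per Mb, and the 35 peaks around Olr37 on chromosome 1 reached 64.8 and had 380.5 peaks per Mb. The 39 peaks around Olr834 on chromosome 5 reached 27.2 and had 257.7 peaks per Mb, and the 34 around Olr832 on chromosome 4 reached 24.8 and had 132.9. Both of these held 4 promoter peaks.

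How the peaks relate to the size of the gene array was read from the GRCr8 gene order, in which receptor genes were joined in a run until 6 or more other protein-coding genes came between. Of 1498 receptor genes, 247 (16.5%) were named by a peak, in 91 runs. The list names 10647 genes of any kind, and RefSeq holds 23148 protein-coding genes. The share of all protein-coding genes that a peak named, at any distance or within 5 kb, was not computed. The run sizes are therefore compared with each other and not with an ordinary gene. Named genes were 63.6% of the 22 genes that stand alone (43.0 to 80.3%), 54.2% of the 72 genes in runs of 2 to 5, 31.5% of the 251 in runs of 6 to 20, 11.5% of the 549 in runs of 21 to 50 (9.07 to 14.4%) and 8.61% of the 604 in runs over 50 (6.63 to 11.1%). A gene that stands alone takes in every peak of a wide territory. Counting only peaks centred within 5 kb of the start, the shares were 36.4%, 22.2%, 23.9%, 5.28% and 5.30% in the same order of run size. Genes with a promoter peak were 27.3%, 13.9%, 10.4%, 1.46% and 1.16%, against 17.2% of all protein-coding genes. The largest run, 230 olfactory receptor genes on chromosome 3 from Or5ak4 to Or4x13, had 2 named genes and 3 peaks. In the other 5 runs over 50 genes, the named genes were 11 of 97 on chromosome 8, 16 of 81 and 5 of 61 on chromosome 1, 5 of 75 on chromosome 7 and 13 of 60 on chromosome 20, the run beside the major histocompatibility complex.

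**Figure D4:**
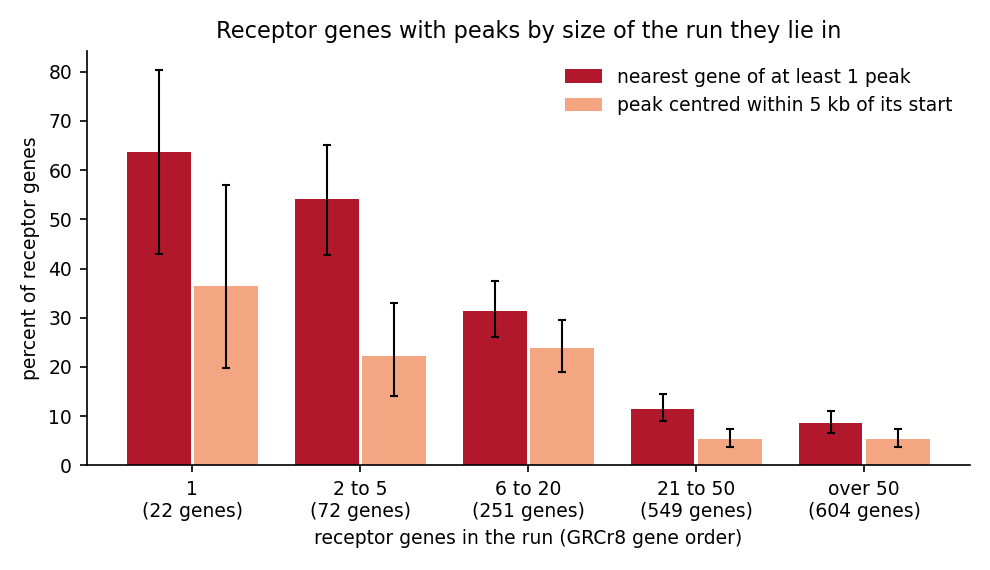
Percent of receptor genes that are the nearest gene of at least 1 peak (dark bars) and that have a peak centred within 5 kb of their start (light bars), by the number of receptor genes in the run they lie in, with 95% Wilson intervals. The dark bars are 63.6% for genes that stand alone and 8.61% in runs over 50 genes, and the light bars 36.4% and 5.30%.

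A gene absent from the annotation that named the peaks cannot be told apart here from a gene without a peak. Restricted to genes with a curated RefSeq transcript, the named shares were 65.0%, 56.5%, 33.5%, 12.6% and 8.89% from the smallest run size to the largest. Large runs hold many near-identical copies, and the part of reads that could not be placed in them was not tested.

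Receptor peaks were centred in L1 elements more often than other peaks. A LINE element (long interspersed element, a retrotransposon class) held the centre of 251 receptor peaks (16.7%, 14.9 to 18.7%), against 8.27% of the list. Of these, 247 (98.4%) were L1, against 91.4% of the LINE peaks of the list. Among intergenic peaks alone the LINE share was 18.4% (16.4 to 20.6%) for receptor peaks and 9.40% for the list. Other tandem gene families had lower shares, 10.7% (9.26 to 12.2%) of 1661 peaks nearest to zinc finger protein genes and 8.61% (5.81 to 12.6%) of 267 peaks nearest to keratin genes. By family it was 23.7% for Vom1r (16.2 to 33.2%), 16.7% for olfactory, 16.5% for Vom2r, 12.1% for Tas2r (6.27 to 22.1%) and 0 of 20 for Tas1r2 (upper bound 16.1%). Lx and L1_Mur3 led the elements with 18 peaks each. The L1 content of the DNA around receptor genes was not measured, so the share is not an enrichment over the sequence present.

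**Figure D5:**
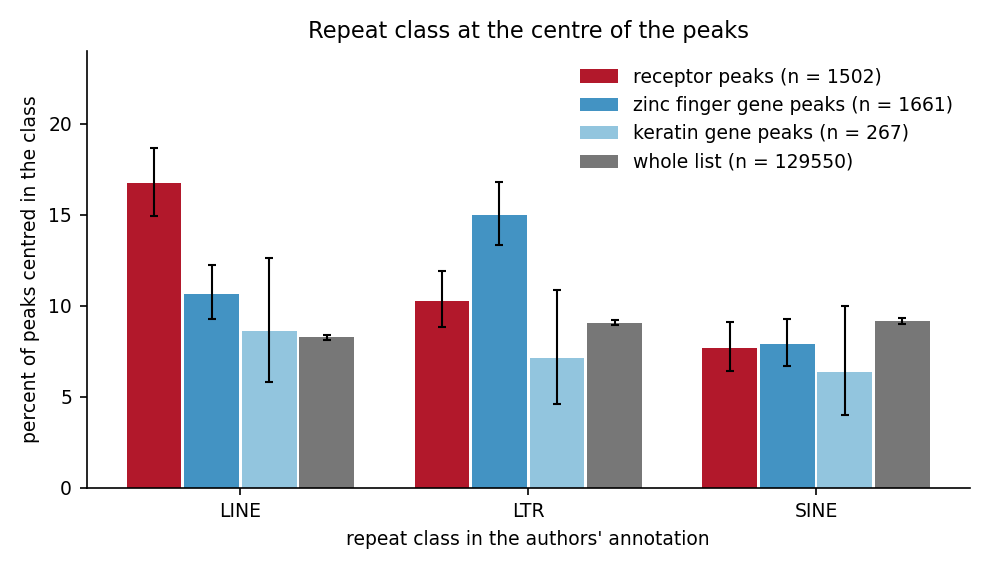
Percent of peaks centred in LINE, LTR and SINE elements for receptor peaks, for peaks nearest to zinc finger protein genes and keratin genes and for the whole list, with 95% Wilson intervals. The LINE bar of receptor peaks is 16.7% and that of the whole list 8.27%, while zinc finger gene peaks have the highest LTR bar, at 15.0%.

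The other classes lay closer to the list. LTR elements, the retrovirus-like class, held 10.3% of receptor peak centres (8.82 to 11.9%), against 9.07% of the list. ERVK was the family of 50.0% of those in receptor peaks and 35.2% of those in the list. SINE elements, the short retrotransposons, held 7.66% (6.42 to 9.11%), against 9.15%. Peaks in LINE elements were not higher than the rest: their median score was 4.33 in receptor peaks and 4.13 in the list, and the highest receptor peaks (982.1 and 397.5) were centred in no repeat. The satellite-like repeat RatSatRep2 held 15 receptor peak centres (1.00%), against 0.107% of the list. CpG islands held 8 (0.533%, 0.270 to 1.05%), against 0.379% of the list. The highest of the 8 scored 71.8 and lay 481144 bp from Vom2r56, and none was closer than 51784 bp to its receptor.

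Among the genes that receptors work with, promoter peaks were most frequent at the transcription factors and cofactors. From a list of 43 genes for receptor choice, signal transduction and trafficking, 36 were named by a peak and 22 had a promoter peak. The share with a promoter peak was 17.2% of all protein-coding genes and 38.4% of all genes named in the list. In 17 of the 22 the promoter peak was in the top 25% of scores. The share of all promoter peaks in the top 25% was not computed, but it was 51.0% of all peaks centred within 1 kb of a start. Of the 11 transcription factors and cofactors, 9 had a promoter peak, all 9 in the top 25%. Emx2, a homeodomain factor of the olfactory epithelium, had 28341 bp and a score of 2011.3. Lhx2 had 11450 bp and 1091.2. Ebf2, of the Olf/Ebf family, had 14949 bp and 767.7, Meis2, a homeodomain cofactor, 9221 bp and 595.1, and Bcl11b, a zinc finger factor, 11004 bp and 539.8. Each of these 5 scored higher than every receptor peak other than that of Olr1768, which Emx2 and Lhx2 exceeded too.

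The transduction genes were divided. Promoter peaks were found at 10 of the 24, and at 7 these were in the top 25% of scores. For this count and that of the trace amine receptors below, the shares to compare are those given above. They are 17.2% of all protein-coding genes and 38.4% of all genes named in the list. Of all peaks centred within 1 kb of a start, 51.0% were in the top 25%. Otop1, the proton channel of sour taste, had 5336 bp and 233.5, Plcb2, the phospholipase of sweet, bitter and umami signalling, 4639 bp and 159.7, Gnal, the G protein of olfactory neurons, 2440.0 bp and 79.6, and Gnao1, the G protein of Vom2r neurons, 1823 bp and 58.2. The olfactory marker gene Omp, the channel gene Cnga4 and the vomeronasal channel gene Trpc2 were the nearest gene of no peak. Cnga2, Gnat3 (gustducin) and Trpm5 had no promoter peak, with highest scores of 7.84, 14.2 and 3.71 at any distance. Of 8 trace amine receptor genes (Taar), which serve olfactory neurons too, 3 had a promoter peak, the highest 27.6 at Taar6.

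Genes that Schwann cells, the glia of the nerve, express were looked up as a check of the tissue. Sox10 had a promoter peak of the smallest width and a score of 4.13, close to the median receptor peak, and S100b and Prx were the nearest gene of no peak. Erbb3 (117.2) and Mbp (77.4) had higher ones.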

How the data were processed

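Per the file headers, the authors annotated a pooled HOMER findPeaks list of the H3K27me3 sham libraries against rn5. The submitters' processing notes name CASAVA 1.8.2, Bowtie and HOMER. How peaks were called, whether against input, and how replicates were pooled is not stated in any source used. Depth per library is unknown. The deposited score has no stated scale. Of the 97601 peaks with a score under 10, 100% lie on multiples of 0.206267 within 0.006, and counting intervals take 1 step as 1 tag. Widths, positions and distances, in bp, were also deposited by the authors.

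Counts, shares, medians and runs were computed with pandas 2.3.3 and Wilson 95% intervals with SciPy 1.17.1. The chaining of clusters, the merging of peaks and the Wilson interval were first tested on made-up values. Genes were matched to RefSeq (GRCr8) by identifier, 248 of 251, for names, order and promoter sequence only. Members, lists and alternatives were chosen with earlier results of these data known. The rule for named genes took the highest, widest and closest peaks per family, promoter peaks in the top 25% of scores and the top peak of each cluster, and of the clusters only some are described. The signalling and marker genes were listed by known role. Some genes that these lists and the rule take are not reported here.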

Additional observations from a re-analysis of the deposited data

How the results depend on the processing

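No paired analysis was possible because the list gives no value per library. Of 98 alternatives over 20 results, 63 stayed within the 95% interval of the reported value (for counts, within 1.5 times), and 35 did not. The LINE share of 16.7% moved under none. Keeping peaks at or above the list median score gave a median width of 406 bp, a median score of 9.28, 6.33% of the smallest width, 47.6% in the top 25%, 82.9% intergenic and 3.40% promoter peaks. Keeping the highest peak of each gene gave 388 bp, 8.25, 31.9%, 45.8% and a median distance of 9570 bp. Merging peaks within 5000 bp gave 1110.0 bp, 7.63, 31.9%, 43.7% and 89.0% intergenic. Olfactory receptors alone gave 83.5% intergenic and a median distance of 11052 bp, and leaving out chromosome 1 gave 82.4% and about 13480 bp. Further alternatives were chosen after seeing the data. Leaving out peaks over 50 kb gave 80.7% and 7938 bp, and leaving out genes placed on another chromosome in GRCr8 gave about 11050 bp. Breaking runs at 11 or more other genes gave 14.9% named in runs of 21 to 50. A promoter reach of 0 bp gave 17 receptor genes (1.13% of peaks) and 10 signalling genes, a reach of 5000 bp gave 146 (28.6%), and the top 25% of scores gave 25 (1.86%). Joining clusters over 2 Mb gave 46.2 peaks per Mb, against 44.8 for the list. Promoter entries of genes with a promoter peak differed from those of all receptor genes, with CCCNNGGG in 0.0%, TAATTA in 6.25% and a median of 3 CG dinucleotides. Some of these shifts are set by the filter itself. Keeping high scores or the highest peak of each gene selects for score and width, and merging sums scores and widens peaks. Leaving out peaks over 50 kb lowers the median distance, and the promoter reach sets how many genes count. The cause of the other shifts was not tested. With no replicate values, a difference between peaks of a few score steps cannot be told from counting error.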

Other observations

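The assembly placed some receptor genes elsewhere than the newer one does. Of the receptor genes matched between the authors' annotation of rn5 and GRCr8, 18 genes with 240 peaks lie on another chromosome in GRCr8. The largest are Olr1768 (101 peaks, chromosome 1 in rn5 and X in GRCr8), Vom2r2 (49 peaks, chromosome 2 and chromosome 1), Olr1271 (17 peaks, chromosome 2 and chromosome 8), Vom1r21 (16 peaks, chromosome 19 and chromosome 1) and Vom1r70 (11 peaks, chromosome 1 and chromosome 4). Tas2r143, with the highest bitter receptor peak, is on chromosome 9 in rn5 and chromosome 4 in GRCr8. Without these 18 genes the median distance of receptor peaks was about 11050 bp, against 16207.5 bp with them. Whether the DNA around these peaks moved with the gene was not tested.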
